A study of Mus musculus with 4 samples.

Results

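The T-box family comprises transcription factors that bind DNA through the T-box domain and pattern the pharynx, heart, limbs and somites of the vertebrate embryo. The 9 family members studied here were Tbx1, Tbx2, Tbx3, Tbx4, Tbx5, Tbx6, Tbx15, Tbx18 and Tbx20. Every probe set of the array whose only gene symbol in GEO's platform annotation was one of these was taken, whatever its value, which gave 19 of 45101 probe sets. Of these 19, 3 passed the filter on low values (log2 intensity above 5 on at least 2 of the 4 arrays), as did 13288 probe sets in all.

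Tissue came from ARC/s mouse embryos at embryonic day 8.5 with 4 to 5 somites, per the labels, although the source label gives 3 to 5. No genetic change or drug is named for any group. Foregut endoderm from the anterior intestinal portal, the front opening of the forming gut, was compared with a mixture of heart mesoderm and head mesoderm and ectoderm (mesoderm/ectoderm), with 2 samples per tissue and 15 to 20 tissue pieces pooled in each. Tissues of experiment 1 were separated by hand and those of experiment 2 after trypsin and pancreatin treatment, so experiment and dissection method cannot be told apart. Foregut endoderm 2 is called ectoderm in a description field, and its other labels, which name foregut endoderm, were followed here. The comparison asks which genes distinguish foregut endoderm from the tissues around it.

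T-box proteins recognise a short half-site, with AGGTGT as its core, and act as activators or repressors. In the early embryo Tbx1 is known for its role in pharyngeal endoderm and mesoderm, Tbx5 and Tbx20 activate heart muscle genes with GATA and NKX partners, and Tbx2 and Tbx3 repress such genes where the heart forms its canals and conduction tissue. Tbx6 acts in paraxial mesoderm and Tbx15 in mesenchyme. Tbx18 acts in the anterior somite and the outer layer of the heart, and Tbx4 in the hindlimb and the lung bud.

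The promoters of Tbx1 and Tbx20 are shown because the values of these genes carried the contrast between the members. RefSeq windows of assembly GRCm38.p6 were available for 5 of the 9 genes, and Tbx3 was not among them. Each sequence is the 250 bases before an annotated start, given 5′ to 3′ on the minus strand that the gene lies on, with capitals for a match to the T half-site. The windows lie at chr16:18590672-18590921 and chr16:18588900-18589149 for Tbx1, which has 2 annotated starts, and at chr9:24774304-24774553 for Tbx20.
Tbx1, first start: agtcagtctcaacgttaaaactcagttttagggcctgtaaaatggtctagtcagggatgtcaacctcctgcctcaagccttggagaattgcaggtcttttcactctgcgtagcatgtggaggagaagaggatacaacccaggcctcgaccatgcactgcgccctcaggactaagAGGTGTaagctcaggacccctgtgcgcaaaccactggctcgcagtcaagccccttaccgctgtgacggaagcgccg
Tbx1, second start: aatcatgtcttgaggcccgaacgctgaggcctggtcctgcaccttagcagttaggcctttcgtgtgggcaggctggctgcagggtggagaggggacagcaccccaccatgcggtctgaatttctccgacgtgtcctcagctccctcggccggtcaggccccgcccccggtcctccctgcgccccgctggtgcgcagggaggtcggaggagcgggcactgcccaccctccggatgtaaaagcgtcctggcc
Tbx20: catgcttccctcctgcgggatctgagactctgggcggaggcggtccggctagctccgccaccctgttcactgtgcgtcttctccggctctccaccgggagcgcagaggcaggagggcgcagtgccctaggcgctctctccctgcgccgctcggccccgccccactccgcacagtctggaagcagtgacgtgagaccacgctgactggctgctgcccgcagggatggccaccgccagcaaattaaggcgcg

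On both strands, 4 short motifs were searched: the T half-site AGGTGT, the forkhead core TGTTTA, the GATA core AGATAA and the NKX core CACTTG, none of which overlapped another match. In the 3 windows there was 1 match, the T half-site that begins 76 bases before the first start of Tbx1. Of all 32851 windows of this length, 11.8% held that half-site, 12.0% the forkhead core, 9.99% the GATA core and 11.6% the NKX core. The G and C content was 54.4% and 67.2% in the Tbx1 windows and 68.8% in that of Tbx20. A match describes the letters of the window only.

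Array facts that bear on all values are few. The floor, meaning values within 0.1 log2 units of the lowest on an array (2.25 to 2.28), held 41.3% to 44.7% of probe sets. Only 2 arrays per tissue limit the precision, and nothing in the labels names separate litters, so the spread between samples may be partly technical. The tissue labels were set against marker genes. Of 12 foregut endoderm markers, 10 had a log2 intensity above 5 on either endoderm array and 5 on either mesoderm/ectoderm array. Of 12 anterior neural plate markers, all were above 5 on both mesoderm/ectoderm arrays and 4 on each endoderm array. Of 16 heart muscle markers, all were above 5 in mesoderm/ectoderm 2 and 0 in mesoderm/ectoderm 1, the sample whose label also names heart mesoderm. Foregut endoderm 1 had 12 of them above 5 and foregut endoderm 2 had 4. The tissue differences of the kept T-box probe sets are therefore given with and without these arrays, as are those of several list genes.

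Of the 9 genes, 4 had a probe set whose height above the array minimum varied by more than 0.5 log2 units between arrays, a limit chosen after the values were seen. These were Tbx1, Tbx3, Tbx18 and Tbx20, with 6 such probe sets between them. The other 13 probe sets varied by at most 0.17 and lay between 2.25 and 2.89 on all arrays. Tbx1 and Tbx3 were higher in both endoderm samples, Tbx20 was high everywhere except in mesoderm/ectoderm 1, and Tbx18 stood out in foregut endoderm 1 alone.

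**Figure D1:**
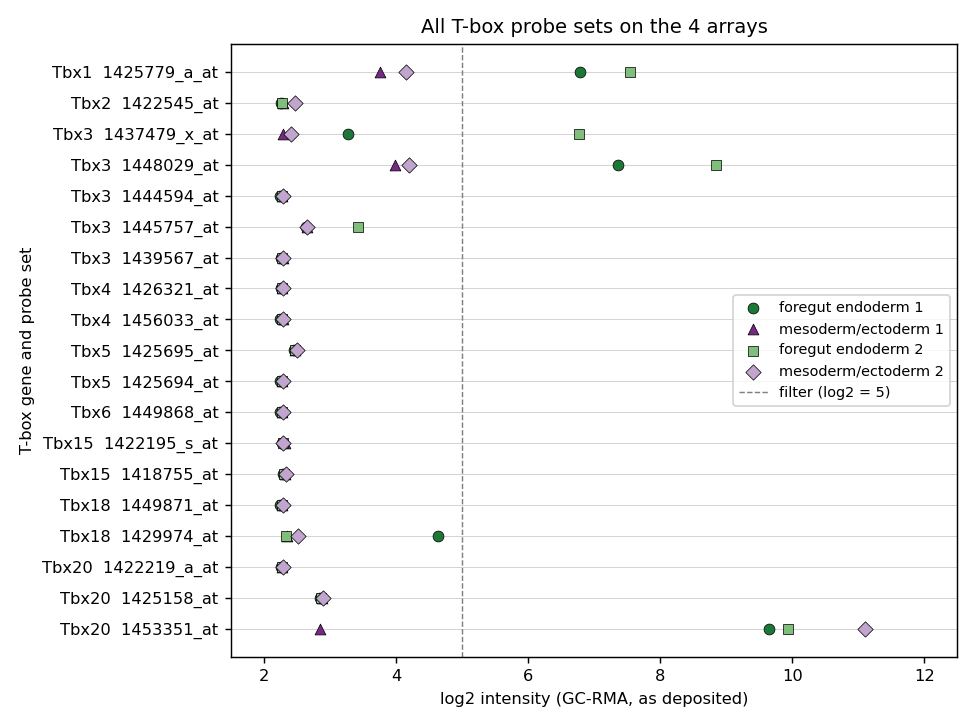
Log2 intensity (horizontal axis) of all 19 T-box probe sets (vertical axis) on the 4 arrays, 1 symbol per array, with the filter at log2 = 5 as a dashed line. Probe sets of Tbx1, Tbx3 and Tbx20 cross the line, and 13 probe sets stay between 2.25 and 2.89 on every array.

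Tbx1, the regulator of pharyngeal segmentation whose loss in humans contributes to DiGeorge syndrome, had a single probe set (1425779_a_at). Its log2 intensity was 6.78 and 7.55 in foregut endoderm 1 and 2 and 3.76 and 4.16 in mesoderm/ectoderm 1 and 2. Both endoderm samples were thus above both others, and the lower pair still lay 1.48 and 1.87 above the array minimum. The means were 7.17 ± 0.54 in endoderm and 3.96 ± 0.28 in mesoderm/ectoderm (SD, n = 2), a 9.25-fold difference. On the log2 scale endoderm exceeded the other tissue by 3.03 in experiment 1 and 3.39 in experiment 2. The difference of the means was 3.21 ± 0.44 (SE), with an adjusted p of 0.724 in limma over all 13288 probe sets, so it did not pass the test.

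Tbx3, a repressor that marks conduction tissue, pharyngeal endoderm and limb margins, was carried by 5 probe sets. The brightest (1448029_at) read 7.36 and 8.85 in endoderm 1 and 2, against 3.99 and 4.19 in mesoderm/ectoderm 1 and 2. As with Tbx1, the tissues did not overlap. The means were 8.11 ± 1.05 and 4.09 ± 0.14 (SD, n = 2), and the log2 difference of 4.01 ± 0.63 (SE; 16.2-fold) had a limma adjusted p of 0.810. It was 3.37 in experiment 1 and 4.66 in experiment 2, and foregut endoderm 2 was 1.49 above foregut endoderm 1. The 2 mesoderm/ectoderm samples differed by 0.20.

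The other Tbx3 probe sets gave smaller values. Probe set 1437479_x_at, whose suffix marks probes that can match other transcripts, read 3.28 and 6.78 in endoderm 1 and 2 against 2.29 and 2.40 in the other tissue, so its difference was 0.99 in experiment 1 and 4.37 in experiment 2. Both are bounds in size, as 2.29 was at the floor and 2.40 lay 0.12 above the array minimum. Probe set 1445757_at left its base level of 2.63 to 2.65 only in foregut endoderm 2, at 3.43. The remaining pair (1444594_at and 1439567_at) was at the floor on all arrays. All 3 probe sets that varied therefore had their highest value in foregut endoderm 2, and averaging all 5 brought the Tbx3 difference from 4.01 down to 1.41.

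Across the 13288 kept probe sets, 3.57% exceeded 2-fold towards endoderm in both experiments and 1.0% exceeded it in the opposite direction. Of the 3 kept T-box probe sets, 2 were among the former, those of Tbx1 and Tbx3, and 0 among the latter. Both exceeded 8-fold in either experiment, as did 0.241% of kept probe sets. Both endoderm arrays stood above both other arrays in 16.4% of kept probe sets and below both in 9.05%, shares that were 39.1% and 31.1% without mesoderm/ectoderm 1. The kept probe sets lean towards endoderm as deposited: of those 2-fold apart the same way in both experiments 474 were higher and 133 lower, against 367 and 194 after quantile normalization and 347 and 211 after median centring. Single arrays move these counts too, as a lone array then serves both comparisons: they were 1097 and 525 (8.26% and 3.95%) without mesoderm/ectoderm 1 and 890 and 253 without mesoderm/ectoderm 2. Without foregut endoderm 1 they were 641 and 313, and without foregut endoderm 2 they were 616 and 204. The share past 8-fold ran from 0.203% without foregut endoderm 2 to 0.519% without mesoderm/ectoderm 2. The median difference of all kept probe sets moved accordingly from 0.10 to -0.02 and -0.08, whereas Tbx1 stayed at 3.04 and 3.03 and Tbx3 at 3.86 and 3.84.

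With limma, 0 of 13288 probe sets (0.0%) passed an adjusted p of 0.05, and 500 (3.76%) had an unadjusted p under 0.05, of which 395 were higher in endoderm (2.97%). Tbx1 and Tbx3 were among these 395 and Tbx20 was not. With the experiment as a block in limma, 0 passed as well, and the adjusted p was 0.351 for Tbx1 and 0.390 for Tbx3. Without foregut endoderm 1 the differences were 3.59 for Tbx1 and 4.76 for Tbx3, and without mesoderm/ectoderm 1 they were 3.01 and 3.91. An exact permutation test of 2 samples against 2 cannot give a two-sided p below 0.333, so no such test could pass.

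**Figure D2:**
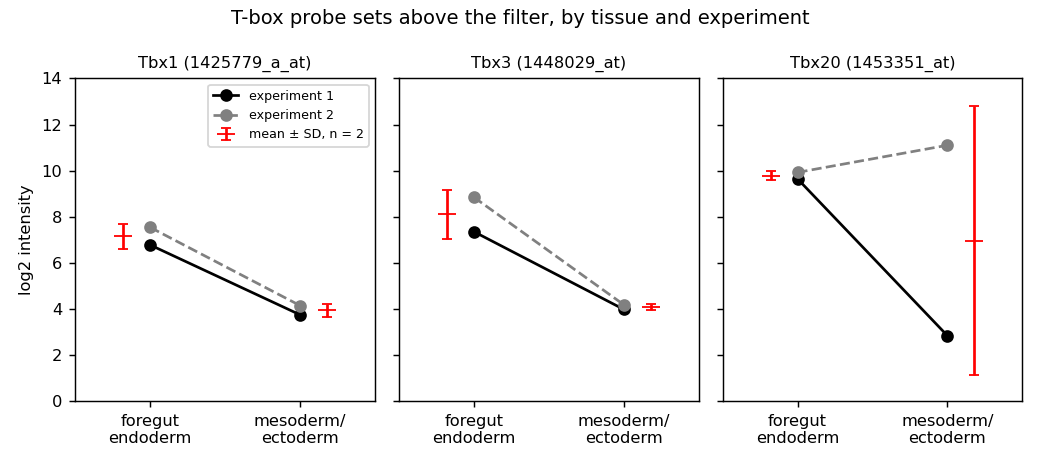
Log2 intensity (vertical axis) of the 3 T-box probe sets above the filter in each tissue (horizontal axis). Points are single arrays, lines join the tissues of an experiment, and red marks give the mean ± SD (n = 2). Tbx1 and Tbx3 are lower at the mesoderm/ectoderm end of both lines, while the lines of Tbx20 part, ending at 2.85 and 11.10.

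Levels of Tbx1 and Tbx3 moved with those of the endoderm markers. The summed intensity of the 12 markers was 6715 and 16286 in foregut endoderm 1 and 2 and 548 and 1304 in mesoderm/ectoderm 1 and 2. Of the defining markers, Nkx2-1 was at the floor on all 4 arrays. In pooled tissue fewer cells of a type and less RNA per cell cannot be told apart, and how far the endoderm content of each sample accounts for the T-box values was not tested.

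Tbx2, the closest relative of Tbx3 and likewise a repressor, had 1 probe set (1422545_at). It read 2.26 and 2.27 in foregut endoderm 1 and 2, 2.29 in mesoderm/ectoderm 1 and 2.46 in mesoderm/ectoderm 2. Only the last of these was off the floor, by 0.18 above the array minimum. Both probe sets of Tbx4, a factor of hindlimb and lung bud, were at the floor on all 4 arrays. In the RefSeq gene order Tbx2 and Tbx4 are neighbouring protein-coding genes on chromosome 11, and Tbx3 and Tbx5 on chromosome 5. Of these 4 linked genes, Tbx3 was the only one with a kept probe set.

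Tbx20, an activator of heart muscle genes that is also needed for valve formation, was read above 9 on 3 of the 4 arrays. Probe set 1453351_at read 9.65 and 9.93 in the endoderm of experiments 1 and 2, and 2.85 and 11.10 in their mesoderm/ectoderm. The low sample was therefore mesoderm/ectoderm 1, whose value lay 0.57 above the array minimum, and the 2 endoderm samples differed by 0.28. Endoderm was 6.80 log2 units higher in experiment 1 and 1.18 lower in experiment 2 (2.26-fold). The tissues overlapped.

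The mean of Tbx20 was 9.79 ± 0.20 in endoderm and 6.97 ± 5.84 in mesoderm/ectoderm (SD, n = 2). The difference of 2.81 ± 3.05 (SE) did not pass limma's test (adjusted p = 1.0). It became -1.32 without mesoderm/ectoderm 1 and 6.94 without mesoderm/ectoderm 2 (limma's adjusted p of 0.852 and 0.999), so single arrays set its direction and size. Without foregut endoderm 1 it was 2.95. At least 2-fold higher in experiment 1 and at least 2-fold lower in experiment 2 was the pattern of 1.6% of kept probe sets, Tbx20 included. With 1 sample of each tissue per experiment, the difference between the experiments was not tested.

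The other Tbx20 probe sets did not follow the first. Probe set 1422219_a_at was at the floor on all 4 arrays, and 1425158_at read 2.85 to 2.89 on all of them, including the 3 arrays where 1453351_at lay above 9. The high values of Tbx20 thus rest on 1 of 3 probe sets. The mean over all 3 gave a difference of 0.92.

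**Figure D3:**
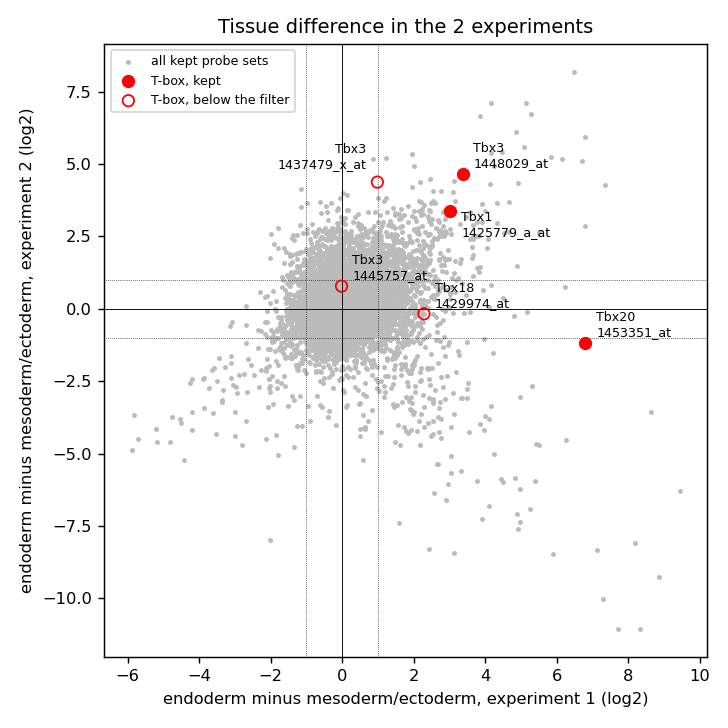
Foregut endoderm minus mesoderm/ectoderm on the log2 scale in experiment 1 (horizontal axis) and experiment 2 (vertical axis), with 1 grey point per kept probe set, filled red points for the 3 kept T-box probe sets, open ones for the 3 others that varied, and dotted lines at 2-fold. Tbx1 and Tbx3 (1448029_at) lie in the upper right and Tbx20 at 6.80 and -1.18 in the lower right.

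Heart muscle markers differed strongly between the same arrays. The summed intensity of the 16 markers was 14989 and 1100 in the endoderm of experiments 1 and 2, and 142 and 118613 in their mesoderm/ectoderm, and in the last sample 0 of the 16 were at the floor. Between the endoderm samples, Tbx20 differed by 0.28, while these markers differed by unlike amounts. Among the largest drops, cardiac troponin T (Tnnt2) was at 10.84 and 3.16 in foregut endoderm 1 and 2. Titin (Ttn) was at 10.94 and 2.83 and the atrial light chain Myl7 at 9.74 and 4.72. The slow myosin heavy chain Myh7, at 11.29 and 9.55, and the light chain Myl3, at 6.93 and 6.53, were closer together. So were Tnnc1 (7.73 and 6.32), Actn2 (3.12 and 2.57), Nppa (3.14 and 2.92) and Tnni3 (2.32 and 2.34). The part of heart muscle content in the Tbx20 values was not tested.

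**Figure D4:**
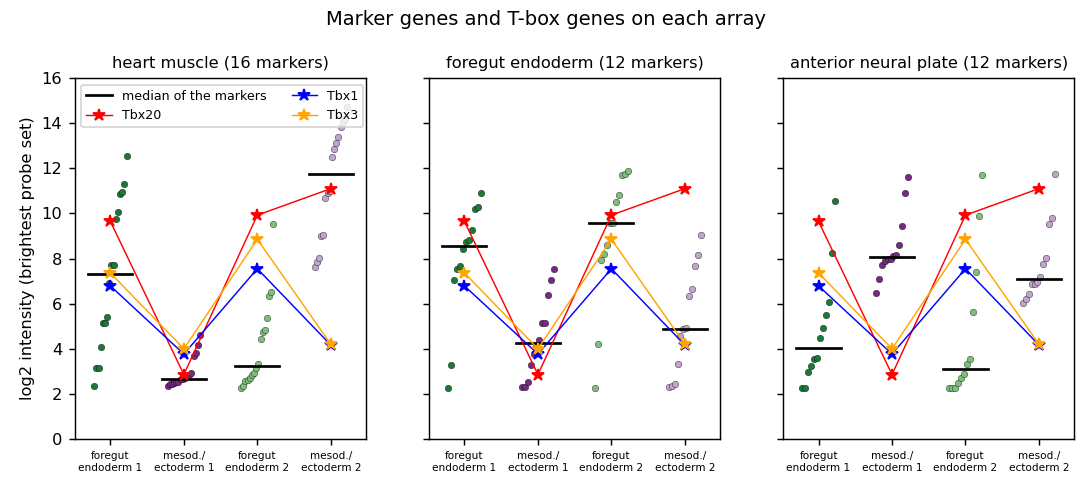
Log2 intensity (vertical axis) on each array (horizontal axis) of heart muscle, foregut endoderm and anterior neural plate markers (small points, brightest probe set per gene, black bar at the median), with Tbx20, Tbx1 and Tbx3 as stars joined by lines in every panel. The median of the heart muscle markers is lowest in mesoderm/ectoderm 1 (2.67), where Tbx20 is at 2.85. It is low also in foregut endoderm 2 (3.23), where Tbx20 is at 9.93 and some of the markers are lower than in mesoderm/ectoderm 1.

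Tbx5, the cardiac activator mutated in Holt-Oram syndrome, was not measured above its base level in any sample. Its probe sets 1425694_at and 1425695_at read 2.28 and 2.50 in mesoderm/ectoderm 2, where all 16 heart muscle markers were above 5, and 2.28 and 2.48 in mesoderm/ectoderm 1, where none were. Their range over the arrays, counted above the array minimum, was 0.00 and 0.02. Whether the probes would detect the transcript was not tested.

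Among the members tied to mesoderm, Tbx6, which specifies presomitic mesoderm, and Tbx15 were at the floor on all 4 arrays with every probe set. Tbx18, a factor of the anterior somite and the outer layer of the heart, read 4.64 in foregut endoderm 1, 2.34 in foregut endoderm 2 and 2.35 and 2.51 in mesoderm/ectoderm 1 and 2 with probe set 1429974_at. That single array decides its difference of 2.29 in experiment 1, a bound since mesoderm/ectoderm 1 was at the floor, against -0.17 in experiment 2. The difference of the tissue means was 1.06 with all arrays and -0.093 without foregut endoderm 1. The probe set did not pass the filter, and the other one of Tbx18 (1449871_at) was at the floor throughout. Somite genes fixed as a list were low as well: 0 of the 12 passed the filter, and 11 were on the array. By the 0.5 limit 4 of the 11 varied between arrays, and all 4 are named here after their values were seen. Dll1, a Notch ligand gene, read 3.45 and 3.89 in foregut endoderm 1 and 2 and 6.33 and 4.85 in mesoderm/ectoderm 1 and 2, so it was lowest where Tbx18 was highest. Tcf15, Meox2 and Meox1 were highest in foregut endoderm 1: they read 4.31, 3.49 and 3.29 there, against at most 2.73, 2.28 and 2.28 on the other arrays. The summed intensity of the 12 head mesenchyme and crest markers was 3066 and 533 in foregut endoderm 1 and 2 and 2467 and 1993 in mesoderm/ectoderm 1 and 2. This sum was thus lowest in foregut endoderm 2, but single markers did not all follow it. Prrx1, Twist1, Pdgfra, Pdgfrb, Foxc1 and Foxc2 were highest in foregut endoderm 1, as Tbx18 was. Tfap2a, Pax3 and Alx1 were highest in mesoderm/ectoderm 1, and Prrx2, Sox10 and Foxd3 in mesoderm/ectoderm 2. In mesoderm/ectoderm 1 the brightest markers were Tfap2a (10.42) and Pax3 (8.68). The part of mesenchyme in the Tbx18 values was not tested.

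Of 8 further T-box genes on the list, 6 had a probe set with their symbol alone. Mga, which joins a T-box to a Max-binding domain, was the only one above the filter, with 9.70 and 8.74 in foregut endoderm 1 and 2 and 9.45 and 8.07 in mesoderm/ectoderm 1 and 2. Its differences were 0.25 and 0.67 (mean 0.46, and -0.021 without foregut endoderm 1), and its limma adjusted p was 1.0. Eomes, Tbr1, Tbx19, Tbx21 and Tbx22 did not exceed 3.04 on any array. The samples of experiment 2 were the lower ones for Mga in both tissues.

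Genes that work with Tbx1 in the pharynx were taken next, with the brightest kept probe set for each gene. Of 22 listed genes 18 were on the array and 10 passed the filter. Within this list 0 passed limma's test in either direction, 5 exceeded 2-fold towards endoderm in both experiments and 0 in the opposite direction, against 276 higher and 97 lower among all 7802 measured genes. Without foregut endoderm 1, 1 gene of the list was at least 2-fold lower. Median differences were 1.57 and 1.28 in experiment 1 and 2, against 0.15 and 0.01 for all genes. The 5 were Pax9, a factor of the pharyngeal pouches (6.50 and 8.18), the forkhead factor Foxa2 (3.12 and 4.03), the morphogen Shh (3.15 and 3.71), the phosphatase and cofactor Eya1 (1.72 and 1.64) and the retinoic acid hydroxylase Cyp26a1 (1.41 and 1.04). For Pax9 these are bounds, since the gene was at the floor in both mesoderm/ectoderm samples. The mean difference of Cyp26a1 was 1.22 with all arrays, 0.665 without mesoderm/ectoderm 1 and 0.848 without foregut endoderm 2. Pax9, Foxa2 and Shh are also among the foregut endoderm markers, so the count and medians of this list are not independent of those markers.

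Of the 10 measured pharyngeal genes, 8 were higher in endoderm in both experiments, as were 2888 of all 7802 measured genes. Besides the 5 named above these were Foxc1 (1.80 and 0.785), Six4 (0.84 and 1.45) and Hes1 (0.87 and 1.12). The remaining pharyngeal genes were less uniform. Dach1, a cofactor that acts with Eya proteins, was higher in endoderm by 1.42 in experiment 1 and lower by 3.30 in experiment 2 (-3.30 on the log2 scale), and its mean difference of -0.94 was 2.00 without foregut endoderm 2. The adaptor Crkl, which also lies in the region deleted in DiGeorge syndrome, was at -0.06 and 0.40 (mean 0.17, and -0.31 without foregut endoderm 1). Fgf8 and Fgf10, growth factor genes downstream of Tbx1 in the pharynx and second heart field, were at 2.25 to 2.33 on all arrays. Pax1 and Gbx2 did not pass the filter, but, in values chosen after they were seen, Pax1 was at 3.90 and 5.18 in endoderm 1 and 2 and at the floor in both other samples.

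Most cardiac partners of T-box proteins had tissue differences of opposite sign in the experiments. Of 10 listed genes 7 passed the filter, 5 of these were higher in endoderm in experiment 1 and lower in experiment 2, and 0 passed limma's test. Among all 7802 measured genes 1955 (25.1%) had that order of signs. Their median differences were 2.92 and -4.09. The bHLH factor Hand2 read 9.19 and 4.01 in foregut endoderm 1 and 2 and 3.78 and 8.67 in mesoderm/ectoderm 1 and 2. Its differences were 5.41 and -4.66, those of the MADS-box factor Mef2c 2.92 and -6.60, and those of Gata5 3.03 and -4.09. Mef2c was at 10.67 and 3.62 and Gata5 at 5.61 and 2.56 in foregut endoderm 1 and 2, so these partners differed between the endoderm samples where Tbx20 did not differ by more than 0.28. The difference of the tissue means turned with the arrays. For Hand2 it was 0.37 with all arrays, -2.07 without mesoderm/ectoderm 1 and -2.22 without foregut endoderm 1. For Gata5 these values were -0.53, -2.57 and -2.05, for Mef2c they were -1.84, -3.08 and -5.37, and without foregut endoderm 2 they were positive for all 3 genes.

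Kept markers of heart muscle, endothelium and blood had the same order of signs as these partners, unlike those of the other marker lists. Of 9 kept head mesenchyme and crest markers 3 had it, and of the kept foregut endoderm and anterior neural plate markers 0 did. All 12 kept heart muscle markers were higher in endoderm in experiment 1 and lower in experiment 2 (medians 5.40 and -8.19), as were all 6 kept endothelial markers of 10 listed (2.03 and -2.64). The summed intensity of the 10 endothelial markers was 890 and 195 in foregut endoderm 1 and 2 and 253 and 612 in mesoderm/ectoderm 1 and 2, with Pecam1 at the floor on every array. Of 7 red blood cell markers on the array, the 2 that passed the filter, the embryonic globin genes Hbb-bh1 and Hbb-y, also had this order (medians 2.57 and -3.68). The summed intensity of the 7 was 2394 and 219 in foregut endoderm 1 and 2 and 420 and 2456 in mesoderm/ectoderm 1 and 2, with Hba-a1 and Alas2 at the floor on every array. The part of heart muscle, endothelium and blood in the values of the partners was not tested.

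Isl1, a LIM homeobox gene of heart progenitors and pharynx, was the cardiac partner at least 2-fold higher in endoderm in both experiments (4.53 and 2.63; mean 3.58 ± 0.75, SE; limma adjusted p = 0.909). Nkx2-5, the homeobox partner of Tbx5 and Tbx20, was at 1.79 and 0.75. It read 5.50 and 7.66 in foregut endoderm 1 and 2 and 3.71 and 6.91 in mesoderm/ectoderm 1 and 2, so mesoderm/ectoderm 1 was the lowest sample for Nkx2-5 as it was for Tbx20. The mean difference of Nkx2-5 was 1.27, and -0.33 without mesoderm/ectoderm 1. Without that array the list held 2 genes at least 2-fold lower in endoderm in both comparisons and without foregut endoderm 1 it held 1, against 0 with all arrays, and without mesoderm/ectoderm 2 it held 2 higher, against 1.

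Heart genes known as T-box targets gave 5 measured genes of 11 listed, with 0 past limma's test and median differences of 3.76 and -0.03. Those at least 2-fold higher in endoderm in both experiments numbered 2, against 276 of all 7802 measured genes. They were Tgfb2, a ligand of the cushion mesenchyme, at 6.80 and 2.87, and Has2, the hyaluronan synthase of cardiac jelly, at 3.76 and 2.53. Tgfb2 read 2.51 in mesoderm/ectoderm 1, and its mean difference was 4.84 with all arrays and 2.79 without that one. For Has2 these were 3.14 and 2.17. The repressed target Mycn was at -0.26 and -0.81. The muscle gene Myh6 was at 5.90 and -8.48, with a mean difference of -1.29 that was -6.12 without mesoderm/ectoderm 1 and 3.54 without mesoderm/ectoderm 2. Without mesoderm/ectoderm 1 the list held 1 gene at least 2-fold lower in both comparisons, against 0 with all arrays. Without mesoderm/ectoderm 2 it held 3 genes at least 2-fold higher, against 2 with all arrays. The chamber genes Nppa and Nppb were below the filter, at 9.06 and 6.16 in mesoderm/ectoderm 2 and at most 3.14 and 2.28 elsewhere.

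Genes of upstream signals differed in both directions. Of 15 genes of the BMP and retinoic acid pathways, 12 were measured and 0 passed limma's test. Of the 12, 5 were higher in endoderm in both experiments, 4 lower in both and 3 higher in experiment 1 only, with medians of 0.34 and -0.05. Among all 7802 measured genes these classes held 2888, 1895 and 1955, so the list was split much as genes at large were. The retinaldehyde dehydrogenase Aldh1a2 was the only one 2-fold lower in both experiments (-1.06 and -1.74), and the list had 0 such genes without mesoderm/ectoderm 1 and 2 without foregut endoderm 1. Towards endoderm 0 exceeded 2-fold in both, against 1 without foregut endoderm 1 and 3 without mesoderm/ectoderm 2. The inhibitory Smad7 was at 2.17 and 0.94 (mean 1.56, and 0.488 without mesoderm/ectoderm 1). The BMP target Id1 was at 0.57 and 1.78 (mean 1.18, and -0.069 without mesoderm/ectoderm 1). The ligand gene Bmp5 was at -0.07 and -2.45 (mean -1.26, and -0.297 without foregut endoderm 2).

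**Figure D5:**
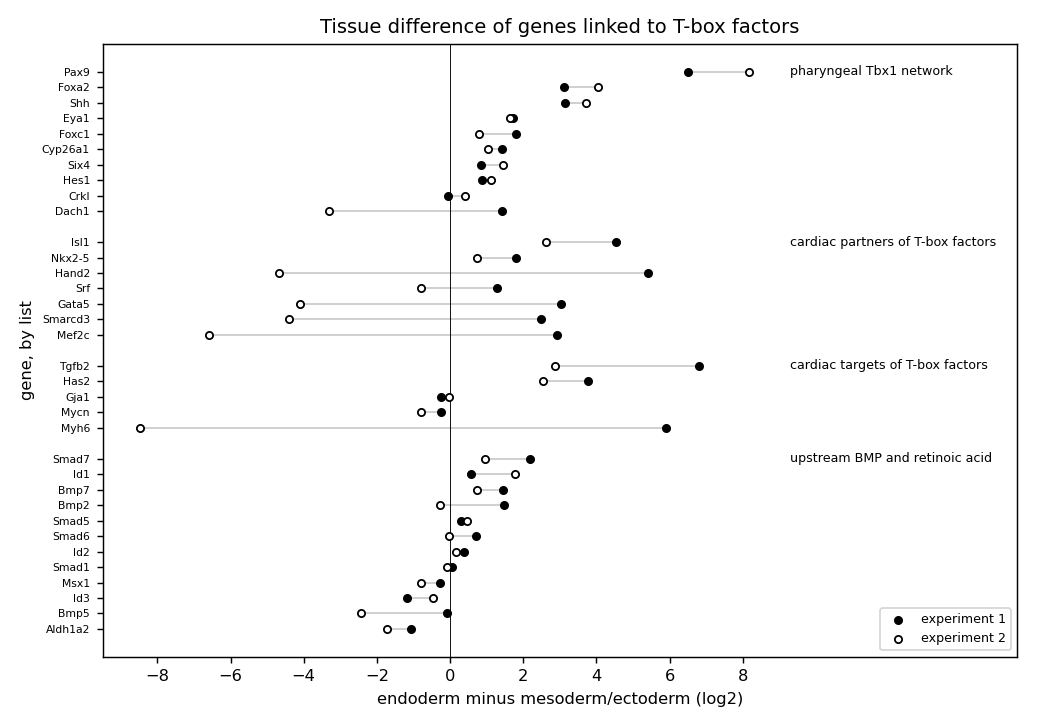
Foregut endoderm minus mesoderm/ectoderm on the log2 scale (horizontal axis) for each measured gene of 4 lists (vertical axis), with experiment 1 as filled and experiment 2 as open circles joined by a line. Tgfb2 lies farthest to the right in experiment 1 (6.80) and Pax9 in experiment 2 (8.18), and the lines of Hand2, Gata5, Mef2c and Myh6 are among those that cross 0.

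Patterns over the 4 arrays were compared with those of 7799 other genes by the Euclidean distance between log2 values centred on each probe set's mean. The genes nearest to Tbx1 were Dsg2, a desmosomal cadherin (distance 0.12), Kdf1 (0.24), the integrin gene Itga3 (0.42), Ttc6 (0.46) and Foxa2 (0.46). Foxa2 was the nearest to Tbx3 (0.52), followed by the adherens junction gene Cdh1 (0.61), the carboxypeptidase gene Cpm (0.75), Masp1 (0.83) and Shh (0.88). Tbx1 and Tbx3 were 0.97 apart. With only 4 points per gene, these distances describe likeness on these arrays and no more.

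Tbx20 had no such close match. Its nearest gene was Myh7 at 2.14, followed by the tropomyosin gene Tpm1 (2.55), the small heat shock gene Cryab (2.69), the apolipoprotein gene Apoe (2.87) and the glypican gene Gpc3 (2.92). Myh7 read 11.29 and 9.55 in foregut endoderm 1 and 2 and 2.64 and 13.11 in mesoderm/ectoderm 1 and 2, so its endoderm samples differed by more than those of Tbx20. In a description chosen after the values were seen, 7 of 13288 kept probe sets (0.0527%) lay at least 4 log2 units lower in mesoderm/ectoderm 1 than on every other array. Besides that of Tbx20 they were those of Tpm1, Myl3, Cryab, Myh7 and Tgfb2 and 1 that was not named because it has several symbols.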

How the data were processed

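The authors deposited intensity values per probe set. Per the series' design text these came from GC-RMA run in GenePattern, and the submitters' processing notes name RMA, with no version. RNA was amplified in 2 rounds, per the labels' protocols, and hybridized to Affymetrix MOE430 arrays. The linear scale was read from the values (4.75 to 75547), and log2 was taken here. The 64 control probe sets were left out.

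Tissue differences were fitted in R 4.3.3 with limma 3.58.1 (lmFit, eBayes, two-sided, Benjamini-Hochberg adjustment over all kept probe sets, threshold 0.05) without a term for the experiment. On simulated data, the fits with that term and without it both estimated the planted differences. Where no experiment effect was added, both also called them, and where a strong one was added only the fit with the term did. The simulated noise was equal for all probe sets, unlike the spread of the real values, so it does not show what either fit could call here. Sample numbers pair the samples, as the labels' protocols tie a number to a way of dissection. Deviations of same-numbered samples from their tissue means correlated at r = 0.565 across kept probe sets. The members and gene lists were chosen with earlier results of these data known, so no p was adjusted over a list. Named genes were all members, up to 4 measured genes per list by mean absolute difference, and 5 genes of nearest pattern per kept member. Others are said to have been named after their values were seen, or stand as marker or list examples.

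Alternatives were no filter, a filter on 1 array, quantile normalization, median centring over kept probe sets, log2(intensity + 16), the replicate block, the mean over a gene's probe sets, and each array left out, where the lone array served both experiments.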

Additional observations from a re-analysis of the deposited data

Results flagged for a closer look

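For 3 T-box probe sets that varied between arrays, the tissue difference had opposite signs in the experiments, and this difference between experiments was not tested. Tbx20 (1453351_at) was at 6.80 in experiment 1 and -1.18 in experiment 2, Tbx18 (1429974_at) at 2.29 and -0.17, and Tbx3 (1445757_at) at -0.017 and 0.78, where the first value is no larger than the shift of the array minimum. The same held, also untested, for 9 of the genes that the naming rules took from the lists other than markers or by like pattern. In experiment 1 and 2 these were Gata5 at 3.03 and -4.09, Hand2 at 5.41 and -4.66, Mef2c at 2.92 and -6.60, Myh6 at 5.90 and -8.48, and Dach1 at 1.42 and -3.30. Among genes of like pattern they were Myh7 at 8.65 and -3.57, Tpm1 at 5.30 and -2.67, Cryab at 5.50 and -4.71 and Apoe at 2.83 and -1.33. All are log2 differences, foregut endoderm minus mesoderm/ectoderm. Further list and marker genes had opposite signs too and are not all listed, among them Smarcd3 (2.49 and -4.41) and the 12 kept heart muscle markers.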

How the results depend on the processing

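Only 2 arrays per tissue and the floor limit what these data resolve. Under every alternative run, limma called 0 probe sets and 0 T-box probe sets, and the count of T-box probe sets at least 2-fold apart the same way in both experiments was 2, or 2 to 3 with each array left out. The third probe set was that of Tbx20, lower in endoderm without mesoderm/ectoderm 1 and higher without mesoderm/ectoderm 2. With the replicate number as a block the count was 2, and the block changed no call. Tbx1 ran from 2.34 with log2(intensity + 16) to 3.59 without foregut endoderm 1, and Tbx3 from 3.15 to 4.76 under the same settings. Leaving out each array gave Tbx20 values from -1.32 to 6.94, turning sign without mesoderm/ectoderm 1. Averaging a gene's probe sets gave 1.41 for Tbx3 and 0.92 for Tbx20. Leaving out arrays for the list genes, the list counts and the shares of all kept probe sets was chosen after seeing the data.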
